A study of Mus musculus with 8 samples.

Results

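The comparison of olaparib alone with DMSO was made in ID8 cells, a mouse ovarian cancer line, in a form whose genotype is labelled olaparib-resistant. It used 4 of the 8 libraries of the study, 2 from cells kept with DMSO, the solvent control, and 2 from cells kept with olaparib, a PARP inhibitor, each for 72 hours. All rows of the count table that passed a filter on low counts were members, 6379 of 54146. The other 4 libraries came from the same resistant line with EZM8266, a compound that per the labels inhibits the histone methyltransferases EHMT1/2, or with both compounds. For combination replicate 2 the treatment label reads EZM8267 and the title EZM8266, and the title was followed. All 4 groups share the resistant line, and cells sensitive to olaparib, the olaparib dose and the way resistance was obtained are not given in the labels used here. Whether replicates come from separate cultures is not stated in the labels, and the spread between libraries on which the p-values rest may be technical.

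PARP1 and PARP2 bind to breaks in DNA and attach chains of ADP-ribose to themselves and to nearby proteins, which recruits repair factors. Olaparib occupies the NAD site of these enzymes and holds them on the DNA, where they obstruct replication forks, and cells that lack homologous recombination are the most sensitive. Resistant tumor cells are known to restore homologous recombination, protect stalled forks or raise drug efflux. Unrepaired DNA can also reach the cytosol and start interferon signaling through cGAS and STING. In cells that respond, PARP inhibition is known to raise p53 targets, G2/M arrest and interferon-response genes.

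Each count had to be read through its strand before it could be given to a gene. The libraries mark the strand, and most counts lay on the strand opposite to the annotated row. Rows that share at least 50 bases of exon with another gene on the reverse strand held most counts. Their share ran from 83.8% (DMSO replicate 1) to 88.6% (olaparib replicate 1). It does not measure the strand of the fragments. AY036118 and CT010467.1 are among these rows and together took 13.98% of the counts in DMSO replicate 1 and 28.7% in olaparib replicate 1. Rows with such an overlap are named here by the other gene, followed by their own symbol in parentheses. The overlap can be a small part of the row, and the counts cannot be divided between that gene and the row's own gene. A row without such an overlap is named by itself. It holds fragments on the strand of its own gene, which are the minor share of a stranded library counted this way. Where it lies within a gene on the other strand, or that gene ends within 5000 bases, it can also hold fragments of that strand. The 4 libraries held 1055309 to 1680974 counts, and the level that 3 counts represent was 1.78 to 2.84 CPM (counts scaled to the library size). Among leukocyte markers 13 of 26 genes had 0 counts in their own rows in the 4 libraries, including Cd3e, Itgam, Adgre1 and Lyz2. Own rows hold their genes only through the minor strand, so these zeros cannot show whether leukocytes were present. The lists of markers of endothelial cells and of fibroblasts and pericytes each had 1 tested row. Of 25 epithelial and mesothelial markers of ID8 cells, 8 had a tested row on either strand.

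Olaparib alone changed no row past the test. At an adjusted p under 0.05 edgeR's quasi-likelihood test called 0 of 6379 rows (0.0%), the smallest adjusted p was 0.999, and DESeq2 called 0 rows as well. At an unadjusted p under 0.05 there were 117 rows (1.83%). With no filter on low counts 8 of 27896 rows (0.0287%) were called, and with a filter that asks for 1 CPM or more in 2 libraries or more 9 of 17570 rows (0.0512%). They included mt-Tq, Gm44359, AY036118 and Gm11336, whose libraries are described with the rows below. The log2 fold change lay above 0 in 3090 rows (48.4%) and below 0 in 3289 rows (51.6%). Both olaparib libraries lay above both DMSO libraries in 965 rows (15.1%) and below both in 998 rows (15.6%). Levels are given as CPM on the TMM scale in the order DMSO replicates 1 and 2, olaparib replicates 1 and 2, and log2 fold changes (olaparib over DMSO) carry the standard error (SE) of the fit or a 95% interval.

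**Figure D1:**
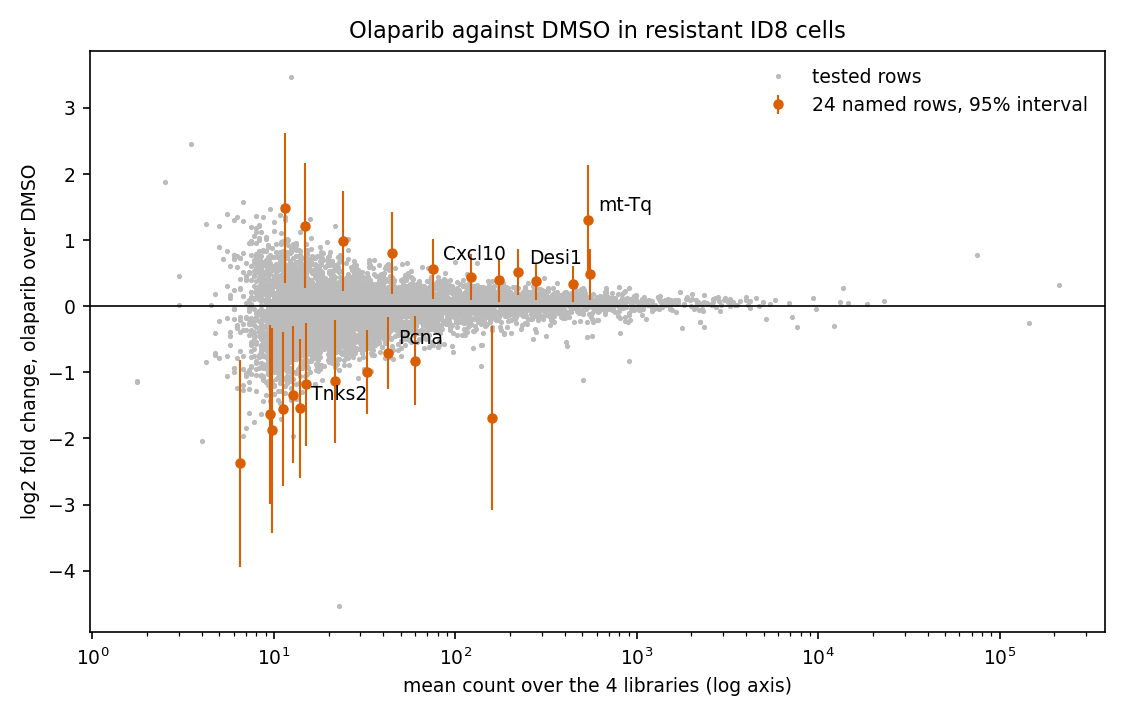
Log2 fold change of olaparib over DMSO for the 6379 tested rows (grey points) against the mean count over the 4 libraries on a log axis, with the 24 named rows and their 95% intervals in orange. The spread of the points narrows as the mean count grows, and no row passed the adjusted test.

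The size of change that these libraries leave room for depended on the count. For the 1329 rows averaging at least 100 counts, the 95% interval of the fold change lay within 2-fold in either direction for 1298 rows (97.67%) and within 1.5-fold for 1127 rows (84.8%). Over all tested rows these shares were 46.25% and 22.09%. Among the 2829 rows with a mean under 20 counts the 2-fold share was 4.065%, so that the intervals of most such rows leave room for a 2-fold change. The median SE was 0.38 over all rows and 0.15 where the mean was at least 100 counts.

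The targets of the drug were read only weakly. Parp1 itself, with no gene on its other strand, held 22 and 61 counts with DMSO and 36 and 26 counts with olaparib, which is 21.5, 37.7, 26.5 and 21.1 CPM. DMSO replicate 2 was the highest of the 4 libraries and the groups overlapped. The log2 fold change was -0.34 with a 95% interval from -1.26 to 0.57 (n = 2 per group, edgeR). Parp2 held 3, 5, 4 and 9 counts and was not tested. Of the PARP family list 4 rows could be read through the other strand, 2 above 0 and 2 below, with 0 called and a median of 0.01 against -0.01 over all tested rows. Without DMSO replicate 1 and olaparib replicate 2, a setting added after the data were seen that leaves 1 library a group, 4 of 4 lay above 0 with a median of 0.21.

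A member of the PARP family, read on its own row, was among the lower rows with the smallest p. Tnks2, tankyrase 2, which attaches ADP-ribose to telomere and Wnt pathway proteins, lies at chr19:36834232-36893477 (mm10, plus strand). Its row was at 16.6 and 15.4 CPM with DMSO and at 5.89 and 4.88 CPM with olaparib. Both olaparib libraries were below both DMSO libraries, and the log2 fold change was -1.55 (SE 0.48, unadjusted p 0.0071 and adjusted p 0.999 by edgeR's quasi-likelihood test). This row has no gene on its other strand, so the counts are of the minor strand. Of the 1213 rows of that kind, 263 had both olaparib libraries below both DMSO libraries and 82 had them above. On their own rows the 7 tested members of the PARP family gave 3 above 0 and 4 below, with a median of -0.01. Beside EZM8266 the Tnks2 row was at 11.3 and 5.97 CPM without olaparib and at 8.06 and 6.82 CPM with it, and those groups overlapped.

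The rows with the smallest unadjusted p were described to show the size of the differences, since none passed the adjusted test. They were taken by a rule, 12 of each direction, with a mean of at least 5 CPM and no overlap between the groups, and the order of the groups is therefore given by the choice. The unadjusted p of these 24 rows ran from 0.00462 to 0.0219.

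Among the higher rows, the chemokine Cxcl10, which interferon induces and which draws T cells, was read in the Art3 row. The exons of that row overlap 133 bases of Cxcl10 exons, which is 3.38% of its exon bases. The counts cannot be divided between Cxcl10 and Art3. The row was at 38.2 and 52.5 CPM with DMSO and at 72.8 and 63.4 CPM with olaparib. The log2 fold change was 0.57 (SE 0.21). The same row was at 59.8 and 74.6 CPM with EZM8266 and at 122.9 and 113.1 CPM with the combination, a log2 fold change of 0.82 (SE 0.20, unadjusted p 0.00144, edgeR) in libraries that the first comparison did not use. Both libraries with olaparib were therefore above both without it in either background, and neither difference passed the adjusted test. The list of chemokines and cytokines as a whole had 5 rows read through the other strand, this one among them. Of these 2 lay above 0 and 3 below for olaparib against DMSO, with a median of -0.04 and 0 called.

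The stretch upstream of Cxcl10 is shown because an interferon-response element, searched on both strands as GAAA, any 2 bases and GAAA again, was found in it. It lies at chr5:92349033-92349139 on the minus strand (GRCm38.p6, RefSeq), ends before the start of the gene, and carries 1 match in capitals whose first base is at -213 from the start:
Cxcl10: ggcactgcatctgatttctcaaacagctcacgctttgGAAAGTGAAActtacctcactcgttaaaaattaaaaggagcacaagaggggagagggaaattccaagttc
Over all 32851 RefSeq promoters of the table, 978 (2.98%) hold this motif in the 250 bases before the start. The match describes the letters of the window and was not tested as a site.

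Ndrg1, a gene raised by hypoxia and other stress, was read in the Gm17035 row, which lies wholly over its exons. That row was at 403 and 311 CPM with DMSO and at 525 and 468 CPM with olaparib, a log2 fold change of 0.48 (SE 0.18). Desi1, an enzyme that removes SUMO from proteins, was read in the row of Xrcc6, the Ku70 subunit of end joining, since the Xrcc6 exons overlap 344 bases of Desi1 exons. The Xrcc6 row was at 151 and 132 CPM with DMSO and at 207 and 196 CPM with olaparib, a log2 fold change of 0.52 (SE 0.16). These counts cannot be divided between Desi1 fragments and those of the Xrcc6 gene itself.

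The other rows with higher levels belonged to genes of many kinds. Triobp (Gm10865), which bundles actin, was at 195 and 177 CPM with DMSO and at 241 and 241 CPM with olaparib. Rab2b (Gm43766), a GTPase of the Golgi, was at 80.3, 77.8, 103.0 and 112 CPM. Rbl2 (Gm45464), the p130 member of the retinoblastoma family that represses E2F genes, was at 127, 106, 143 and 162 CPM. Those 3 rows had log2 fold changes of 0.38, 0.45 and 0.39. Papolg (Gm12061), a poly(A) polymerase, was at 27.4, 23.5, 41.9 and 46.4 CPM. Fkbp10 (Nt5c3b), a chaperone of collagen in the endoplasmic reticulum, was at 299.7, 304, 372 and 390.3 CPM, the smallest difference of the 12 at 0.33. Fam126b (Gm15834), Klhl38 (Gm15943) and Tmprss9, a membrane serine protease, were at 3.71 to 14.8 CPM with DMSO and at 13.01 to 24.4 CPM with olaparib. The log2 fold changes of these 3 rows were 0.99, 1.49 and 1.22. Of the Tmprss9 exons 43 bases lie within Timm13 on the other strand, so that row can hold Timm13 fragments. The overlap with Fam126b is 4.59% of the exon bases of the Gm15834 row. That with Fkbp10 is 5.64% of the Nt5c3b row. The Gm15943 row overlaps exons of 2 genes on the other strand, 1 of them Klhl38.

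**Figure D2:**
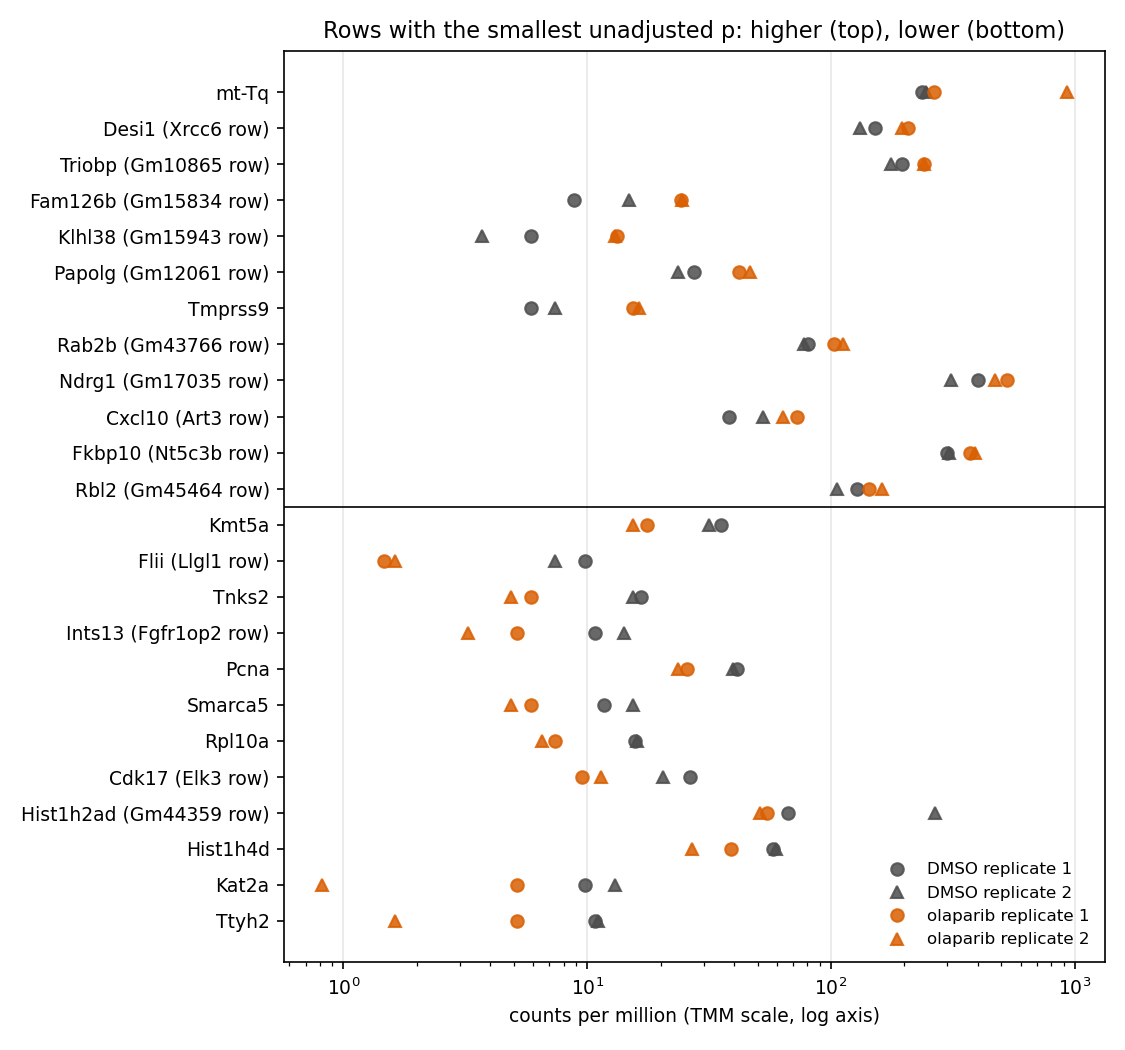
CPM on the TMM scale (log axis) of the 24 rows with the smallest unadjusted p and no overlap between groups, 12 higher above the line and 12 lower below it, with circles for replicate 1 and triangles for replicate 2, grey for DMSO and orange for olaparib. For mt-Tq and Hist1h2ad a single library, olaparib replicate 2 at 933 CPM and DMSO replicate 2 at 267 CPM, stands far from the other 3.

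The last of the 12 higher rows was that of mt-Tq, the mitochondrial transfer RNA gene for glutamine, and it rested on 1 library. The gene lies on the minus strand, and most counts of these libraries lie opposite to their row. The row can therefore hold fragments of plus-strand transcripts, which were not separated from the transfer RNA. The mt-Tq row was at 236 and 246 CPM with DMSO, at 265 CPM in olaparib replicate 1 and at 933 CPM in olaparib replicate 2. The log2 fold change was 1.31 (SE 0.38). Across the 18 other mitochondrial rows averaging at least 100 counts in these libraries, the level of olaparib replicate 2 was 0.699 to 1.29 times that of replicate 1, against 3.52 times in mt-Tq. Without olaparib replicate 1 it was the 1 row called of 7270 (0.0138%), with a log2 fold change of 1.94 and an adjusted p of 0.00058 (edgeR), and the single olaparib library left is then assumed to vary like the other groups. It was also the 1 row called (0.0157%, adjusted p 0.0492) with a replicate block in which the DMSO numbers were crossed, a setting added after the data were seen. In the 4 libraries with EZM8266 it was at 186 to 256 CPM. The gene is shown because it was the row called when a replicate was left out, and it lies at chrM:3772-3842 on the minus strand (mm10, sequence from GENCODE M21), with the last 3 bases, in capitals, shared with mt-Ti on the other strand:
mt-Tq: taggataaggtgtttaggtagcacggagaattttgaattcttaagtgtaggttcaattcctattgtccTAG

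Of the 12 lower rows 8 share no exon with a gene on the other strand. Pcna, the clamp that holds DNA polymerase at the fork, was at 41.1 and 39.5 CPM with DMSO and at 25.7 and 23.6 CPM with olaparib, a log2 fold change of -0.70 (SE 0.25). Kmt5a, the methyltransferase of lysine 20 of histone H4, was at 35.3, 31.5, 17.7 and 15.5 CPM, a log2 fold change of -0.997 (SE 0.30). The histone gene Hist1h4d, for histone H4, was at 57.8, 59.3, 39.0 and 26.8 CPM. Smarca5, the ATPase of ISWI remodelers, was at 11.8, 15.4, 5.89 and 4.88 CPM. Kat2a, a histone acetyltransferase, was at 9.79, 12.97, 5.15 and 0.813 CPM. Kmt5a, Hist1h4d and Smarca5 lie within 5000 bases downstream of a gene on the other strand. Each of the 5 had olaparib libraries below DMSO libraries. Beside EZM8266, 0 of the 12 lower rows had both combination libraries below both EZM8266 libraries. For 5 of the 12 the fold change beside EZM8266 was below 0. The share of all tested rows in that order beside EZM8266 is not given here, so the counts only describe these rows.

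Of the other lower rows Ints13 (Fgfr1op2), a subunit of the Integrator complex, was at 10.8, 14.2, 5.15 and 3.25 CPM. Cdk17 (Elk3), a kinase related to the cyclin-dependent kinases, was at 26.4, 20.4, 9.56 and 11.4 CPM. Flii (Llgl1), an actin-binding protein, was at 9.79, 7.41, 1.47 and 1.63 CPM, where the olaparib values correspond to 2 counts in each library. The overlap is 1.23% of the exon bases of the Fgfr1op2 row, 6.95% of the Elk3 row and 1.32% of the Llgl1 row. These counts can be fragments of the rows' own genes. Rpl10a, a ribosomal protein, and Ttyh2, a chloride channel, were at 10.8 to 16.1 CPM with DMSO and at 1.63 to 7.36 CPM with olaparib. The Rpl10a row lies within 5000 bases downstream of Tead3 on the other strand. Hist1h2ad (Gm44359), a gene of histone H2A, was at 66.6 and 267 CPM with DMSO and at 54.4 and 51.2 CPM with olaparib, so that its fold change of -1.69 (SE 0.64) rested on DMSO replicate 2. Without DMSO replicate 2 the fold change was -0.33.

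The lowest unadjusted p of all rows, 0.000287, belonged to Gm11336 at chr13:23746166-23746499 (adjusted p 0.999, edgeR). It is named because edgeR called it with both looser filters on low counts, at an adjusted p of 0.00276 with no filter and 0.00201 with the filter on 1 CPM. The row overlaps 138 bases of an exon of Gm44314 and held 2 and 2 counts with DMSO and 18 and 28 counts with olaparib. Its log2 fold change was 3.47 (SE 0.70). In the libraries with EZM8266 it held 0 or 1 counts, with or without olaparib.

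Of the 58 genes on the list of the type I interferon response, 14 had a tested row on either strand. Through the other strand the list was read in 9 rows, and 0 of them passed the test. All 9 had a log2 fold change above 0 (8 of 9 with no scaling, with the filter on 1 CPM and with the replicate number as a block), with a median of 0.29 against -0.01 over all tested rows and 0.03 over the rows read through the other strand. For 5 of the 9 both olaparib libraries were above both DMSO libraries. The same held for 693 of the 3554 rows read through exons on the other strand and for 965 of 6379 rows (15.1%) in all. The count above 0 was 7 to 9 when 1 DMSO or olaparib library was left out. It was 8 of 9 without DMSO replicate 1 and olaparib replicate 2 together. On the genes' own rows 8 of 12 lay above 0 and 4 below, with a median of 0.22 and 0 called. Over all rows read through exons on the other strand 2011 of 3554 lay above 0.

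Rnf213, a large ubiquitin ligase that interferon induces, had the highest level of the 9. It was read in the A930037H05Rik row at 643 and 622 CPM with DMSO and at 706 and 825 CPM with olaparib. The log2 fold change was 0.27 with an interval from 0.02 to 0.53. Adar, which edits adenosine in double-stranded RNA, was read in the Chrnb2 row at 153, 179, 196 and 211 CPM. Eif2ak2, the kinase PKR that senses double-stranded RNA, was read in the Gm26637 row at 141, 116, 157 and 156 CPM. That row overlaps exons of 2 genes on the other strand, and the overlap with Eif2ak2 is 7.60% of its exon bases. For these 3 genes the groups did not overlap, and the log2 fold changes were 0.27 to 0.29. With 1 library left out they ran from 0.18 (without olaparib replicate 2) to 0.38 for Rnf213, from 0.20 (without DMSO replicate 1) to 0.42 for Adar and from 0.16 (without DMSO replicate 2) to 0.45 for Eif2ak2.

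Parp9 and Dtx3l form a complex that marks histones at DNA damage, and they overlap each other on opposite strands by 458 bases of exon. Parp9, read in the Dtx3l row, was at 30.4 and 33.3 CPM with DMSO and at 47.8 and 53.7 CPM with olaparib, a log2 fold change of 0.66 (SE 0.27). Dtx3l, read in the Parp9 row, was at 39.2, 27.2, 36.05 and 42.3 CPM, where the groups overlapped. Usp18, which removes ISG15 from proteins and damps interferon signaling, was read in the Gm44148 row at 0.979, 5.56, 7.36 and 9.76 CPM. The value of DMSO replicate 1 is 1 count, under the level of 3 counts.

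The remaining interferon rows overlapped between the groups. Sp140 (Gm17017), a nuclear body protein, was at 20.6, 20.996, 18.4 and 34.2 CPM, with olaparib replicate 2 alone above DMSO. Ifi35 (Gm11626) was at 84.2, 62.4, 94.2 and 70.7 CPM. Irf1 (Gm17334), a transcription factor of the response, was at 183, 181, 189 and 175 CPM, which is the smallest difference of the 9. Of the promoters of these 9 genes, those of 7 genes were in the RefSeq table and 0 of them hold this motif in the 250 bases before the start.

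The combination against EZM8266 shares no library with olaparib against DMSO, and it gave a second set of values for the same rows. There 8 of the 9 interferon rows lay above 0, with a median of 0.34 and 0 called. On the genes' own rows the rise was not repeated there, with 6 of 12 above 0 and a median of 0.01. Rnf213 was at 942 and 934 CPM with EZM8266 and at 1153 and 1221 CPM with the combination. Adar was at 191, 195, 261 and 249.5 CPM in the same order. Irf1 was the row below 0, at 230.0 and 245 CPM with EZM8266 and at 222 and 218 CPM with the combination. The interaction, which tests whether the effect of olaparib differs with EZM8266, had unadjusted values of 0.07 (SE 0.16) for Rnf213 and 0.11 (SE 0.19) for Adar. Of the leukocyte markers only Csf1r had a tested row. Raw counts in the own rows of the 26 markers summed to 108 and 158 with DMSO and to 129 and 137 with olaparib. The libraries held 1055309, 1680974, 1617078 and 1207736 counts. Own rows hold their genes only through the minor strand, so these sums cannot show how many leukocytes were present.

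**Figure D3:**
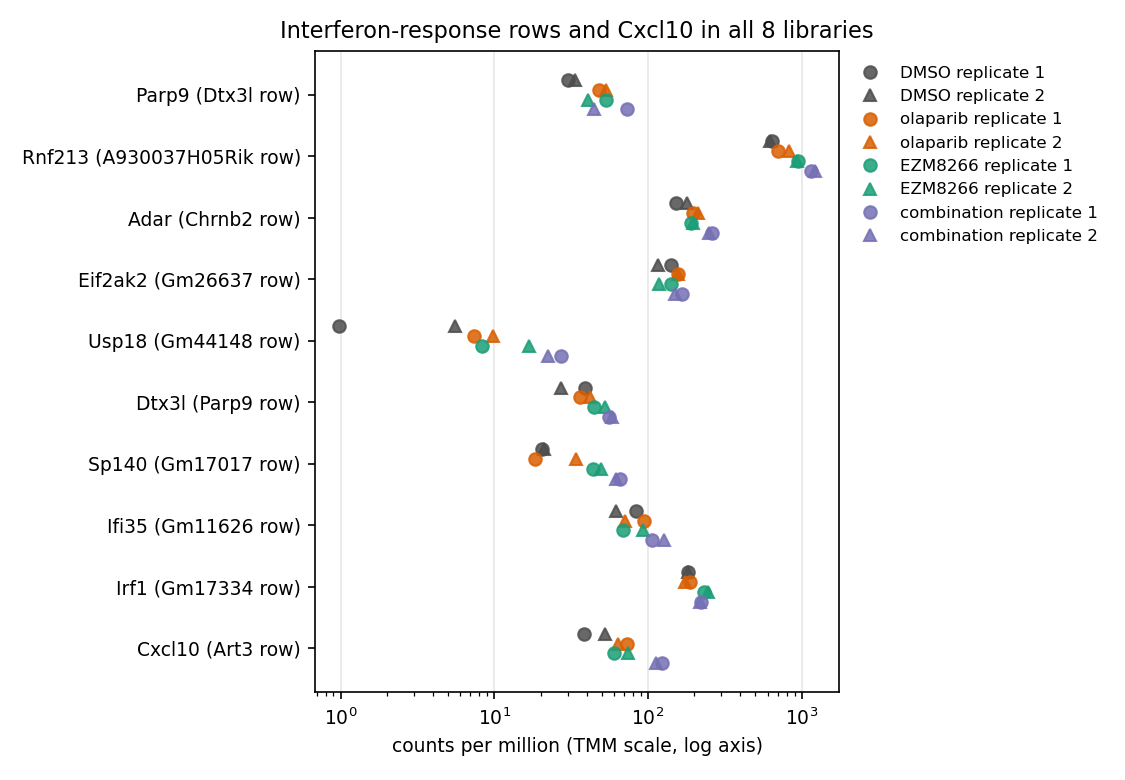
CPM on the TMM scale (log axis) of the 9 interferon-response rows and of Cxcl10 in all 8 libraries, with colors for the group and circles and triangles for replicates 1 and 2. Rnf213 runs from 622 CPM with DMSO to 1221 CPM with the combination, and the olaparib and DMSO points of Sp140, Ifi35 and Irf1 overlap.

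Across all rows the second set of values did not follow the first. Pearson's r between the log2 fold changes of olaparib alone and of olaparib beside EZM8266 was 0.01 over the 6379 rows and -0.03 over the 1329 rows averaging at least 100 counts, across genes, which are not independent replicates. Of the 24 named rows 14 had the same sign in both, 9 of the 12 higher and 5 of the 12 lower. The 4 higher rows in which both combination libraries also lay above both EZM8266 libraries were Cxcl10, Rab2b, Triobp and Tmprss9. Rab2b was at 75.7 and 65.6 CPM with EZM8266 and at 101 and 105 CPM with the combination. The share of all tested rows in that order is not given here, so the 4 rows are a description. At an adjusted p under 0.05 edgeR called 0 of 6379 rows (0.0%) for the combination against EZM8266 and 0 of 6379 rows (0.0%) for the interaction. At an unadjusted p under 0.05 there were 98 rows (1.54%) and 103 rows (1.61%), and DESeq2 called 1 row in each. Without combination replicate 2 edgeR called 3 rows for the combination against EZM8266.

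The rows where the interaction had the smallest p had opposite signs with and without EZM8266. Rbl2 was at 173 and 168 CPM with EZM8266 and at 139 and 129.6 CPM with the combination, against the higher values with olaparib alone given above. Bcl10, an adaptor of NF-kB signaling, was at 2.94 and 3.71 CPM with DMSO, 8.83 and 8.94 CPM with olaparib, 11.3 and 10.9 CPM with EZM8266 and 6.04 and 5.85 CPM with the combination. Gm27177, over exons of Entpd4b and of the lysyl oxidase gene Loxl2, was at 5.88 and 12.97 CPM with DMSO and 19.1 and 20.3 CPM with olaparib. With EZM8266 it was at 113 and 75.6 CPM and with the combination at 20.1 and 23.4 CPM, the smallest adjusted p of that comparison at 0.0801 (edgeR). These rows were picked for that pattern and are a description.

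Genes of homologous recombination and fork protection showed no common direction. Of 17 rows read through the other strand 9 lay above 0 and 8 below, 0 were called, and the median was 0.05. Without DMSO replicate 1 and olaparib replicate 2 there were 8 above 0 and 9 below, with a median of -0.01. Fancd2 (Fancd2os), which is joined to ubiquitin at stalled forks, was at 58.8 and 59.9 CPM with DMSO and at 82.4 and 71.6 CPM with olaparib, a log2 fold change of 0.38 (SE 0.20). Recql4 (Mfsd3), a helicase, was at 32.3, 38.3, 21.3 and 31.7 CPM. Brca1, read on its own row on the minor strand, was at 10.8, 6.79, 2.94 and 1.63 CPM. Of the end joining list, which includes the shieldin and 53BP1 genes, 13 rows gave 8 above 0 and 5 below, with a median of 0.01 and 0 called, and 11 above 0 with a median of 0.12 without DMSO replicate 1 and olaparib replicate 2.

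p53 targets were read in 8 rows through the other strand, 6 above 0 and 2 below, with a median of 0.11 and 0 called. Ei24 (Gm26787) was at 249.7 and 247 CPM with DMSO and at 274 and 291 CPM with olaparib. Rrm2b (Gm49085), the p53-driven subunit of ribonucleotide reductase, was at 61.7, 46.9, 59.6 and 78.9 CPM, so that the groups overlapped. Plk3 (Tctex1d4) was at 17.6, 8.03, 22.1 and 16.3 CPM and overlapped as well. Ccnd2 (9330179D12Rik), a D-type cyclin, was at 10.8, 6.79, 1.47 and 4.07 CPM. The apoptosis list gave 8 of 10 rows above 0 with a median of 0.11 and 0 called. Without DMSO replicate 1 and olaparib replicate 2 the counts above 0 were 4 of 8 for p53 targets and 7 of 10 for apoptosis. For the combination against EZM8266 they were 4 of 8 and 4 of 10.

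Of the G2/M and mitosis list 8 of 9 rows read through the other strand lay above 0, with a median of 0.13 and 0 called, and 8 of 9 without DMSO replicate 1 and olaparib replicate 2. Prc1 (Rccd1), which bundles the microtubules of the central spindle, was at 2054 and 2029 CPM with DMSO and at 2185 and 2334 CPM with olaparib, a log2 fold change of 0.15 (SE 0.11). Ube2c (Tnnc2), a ubiquitin-conjugating enzyme of mitotic exit, was at 21.5, 29.6, 35.3 and 33.3 CPM. The olaparib libraries were above the DMSO libraries for both genes. Of the G1/S and replication list 10 of 16 rows lay above 0 with a median of 0.04 and 0 called, and 8 of 16 without those 2 libraries. In that list Gins2 (Gse1) was at 178, 169.8, 188 and 219 CPM and Cdk4 (Tspan31) at 35.3, 32.1, 21.3 and 23.6 CPM. The Gse1 row overlaps exons of 2 genes on the other strand, 1 of them Gins2. Over all rows read through exons on the other strand 2011 of 3554 lay above 0. For the combination against EZM8266 4 of 9 rows of the G2/M list lay above 0, with a median of -0.03. Of the G1/S list 5 of 16 rows lay above 0 there, with a median of -0.09.

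Histone genes whose messages are made in S phase gave 9 of 20 rows above 0 through the other strand, with a median of -0.04 and 0 called. The direction turned without DMSO replicate 1 and olaparib replicate 2, with 14 of 20 above 0 and a median of 0.07. Hist1h2ao (Gm19658) was at 56.8, 55.0, 74.3 and 70.7 CPM, and Hist2h2aa1 (Gm47313) at 51.9, 99.4, 128 and 115 CPM, both with olaparib above DMSO. Hist1h2af (Gm44297) was at 283, 449, 244 and 242 CPM, with olaparib below DMSO. Histone genes share near-identical sequence, and the counts could be divided among copies in ways the table does not show.

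Efflux pumps and matrix genes, both tied to resistant cells, also stayed without a call. Of 3 rows read for drug efflux transporters 2 lay above 0, with a median of 0.05 and levels that summed to 157, 157, 154 and 156 CPM. Of 13 rows for matrix and epithelial-mesenchymal genes 7 lay above 0, with a median of 0.02. Of these, 1 of 3 and 5 of 13 lay above 0 without DMSO replicate 1 and olaparib replicate 2, with medians of -0.0019 and -0.037. The Pcsk7 row, which overlaps exons of Tagln, an actin-binding protein of contractile cells, was at 15.7, 8.03, 5.89 and 5.69 CPM. Its largest overlap, 415 bases, is with exons of Rnf214, and the counts cannot be divided among these genes. The other lists with at least 4 rows had medians from -0.10 (nucleic acid sensing, which includes cGAS and STING) to 0.27 (NF-kB targets). Of the NF-kB targets 4 of 4 rows lay above 0 and 0 were called. For the combination against EZM8266 2 of these 4 rows lay above 0, with a median of 0.01.

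**Figure D4:**
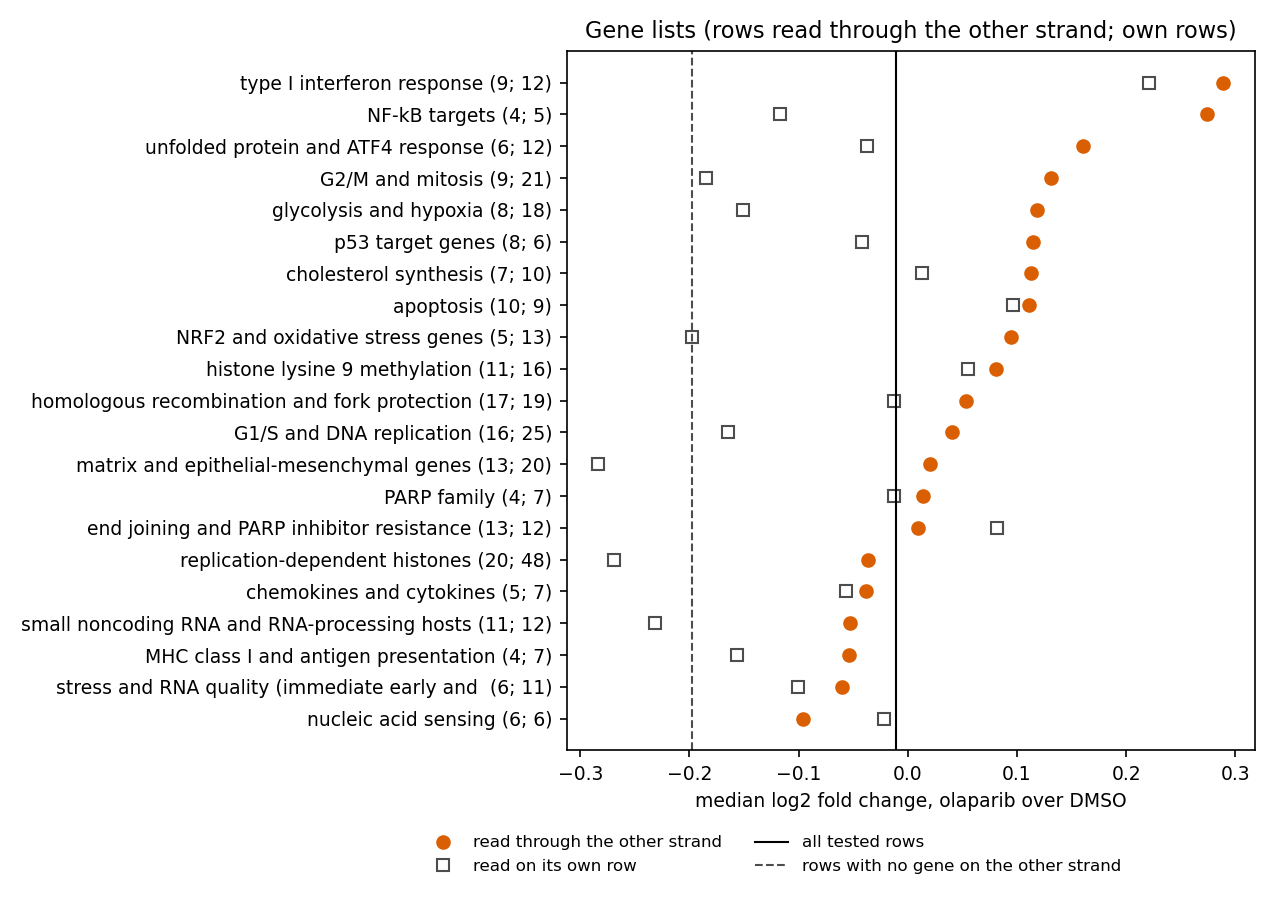
Median log2 fold change of olaparib over DMSO per gene list, read through the other strand (orange circles) and on the rows of the genes themselves (open squares), with the number of tested rows of each reading in parentheses. The solid line is the median of all tested rows (-0.01) and the dashed line that of rows with no gene on the other strand (-0.20), and most open squares lie to the left of the solid line.

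Read on their own rows, many lists lay below 0, and so did the rows with no gene on the other strand. Of those 1213 rows 844 were below 0 with a median of -0.20, against a median of 0.03 over the 3554 rows read through exons on the other strand. The own rows of histone genes gave 10 of 48 above 0 with a median of -0.27, those of matrix genes 4 of 20 with -0.28, those of the G2/M list 4 of 21 with -0.18 and those of the G1/S list 8 of 25 with -0.16. Without DMSO replicate 2 the median of the 1210 rows of this class that were tested was 0.05, with 664 above 0, so that the direction rested on that library. Counts of the Rmrp row, divided by those of Rmrp plus Ccdc107 on its other strand, are a relative measure of minor-strand fragments and were 1.68% in DMSO replicate 2 and 1.24, 1.53 and 1.42% in DMSO replicate 1 and olaparib replicates 1 and 2. Its part in the result was not tested.

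The closest pairs of libraries crossed the groups. In the 1329 rows averaging at least 100 counts, Pearson's r of log2 CPM was 0.956 between the DMSO replicates and 0.970 between the olaparib replicates. DMSO replicate 1 and olaparib replicate 2 had an r of 0.987, and DMSO replicate 2 and olaparib replicate 1 an r of 0.988. The 2 pairs with the same number, 0.968 for replicates 1 and 0.958 for replicates 2, lay between the values within the groups. Over all tested rows the first cross pairs had 0.967 and 0.974 and the same-number pairs 0.960 and 0.954, against 0.957 and 0.959 within the groups. These correlations are across genes and describe the libraries.

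Rows of satellite-type repeats set DMSO replicate 1 and olaparib replicate 2 apart from the other libraries. Gm10800 held 23746 counts in DMSO replicate 1 and 22517 in olaparib replicate 2, against 1186 in DMSO replicate 2 and 1667 in olaparib replicate 1. In all 17 tested rows had at least 2 times as many counts in those 2 libraries as in either of the other 2. Gm21738, Gm26870, Gm10801 and Gm10722 were the next highest of them, with 850 to 3411 counts in DMSO replicate 1 and 36 to 250 in DMSO replicate 2. Reads of repeats can fall on any copy, so these counts are uncertain as to place.

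Rows over the locus of ribosomal RNA set the libraries apart in the other way. AY036118 was at 25224 and 55426 CPM with DMSO and at 113967 and 24630 CPM with olaparib, and CT010467.1, which overlaps it, at 119298, 161398, 227526 and 123696 CPM. Together they took 13.98, 20.9, 28.7 and 15.1% of the counts of the 4 libraries, highest in olaparib replicate 1. With the looser filters on low counts both rows were called higher with olaparib, and without olaparib replicate 1 their log2 fold changes were -0.72 and -0.19. Gm26444 held 0 and 88 counts with DMSO and 2 and 1 counts with olaparib, so that its place among the rows called with the looser filters rested on DMSO replicate 2. Acat2, an enzyme of acetyl-CoA metabolism read on its own row, was at 94.0, 170.4, 45.6 and 98.4 CPM, so that the groups overlapped. The log2 fold change was -0.91 (SE 0.31, adjusted p 0.999, edgeR), and with 1 library left out it ran from -1.54 (without olaparib replicate 2) to -0.39 (without DMSO replicate 2). With the filter on 1 CPM it was called at the same fold change of -0.91 (adjusted p 0.0381, edgeR). It was also the 1 row called of 7230 (0.0138%) when DMSO replicate 1 and olaparib replicate 2 were left out together, a setting added after the data were seen, with a log2 fold change of -1.88 and an adjusted p of 0.0333 (edgeR), where each group is then 1 library assumed to vary like the others.

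**Figure D5:**
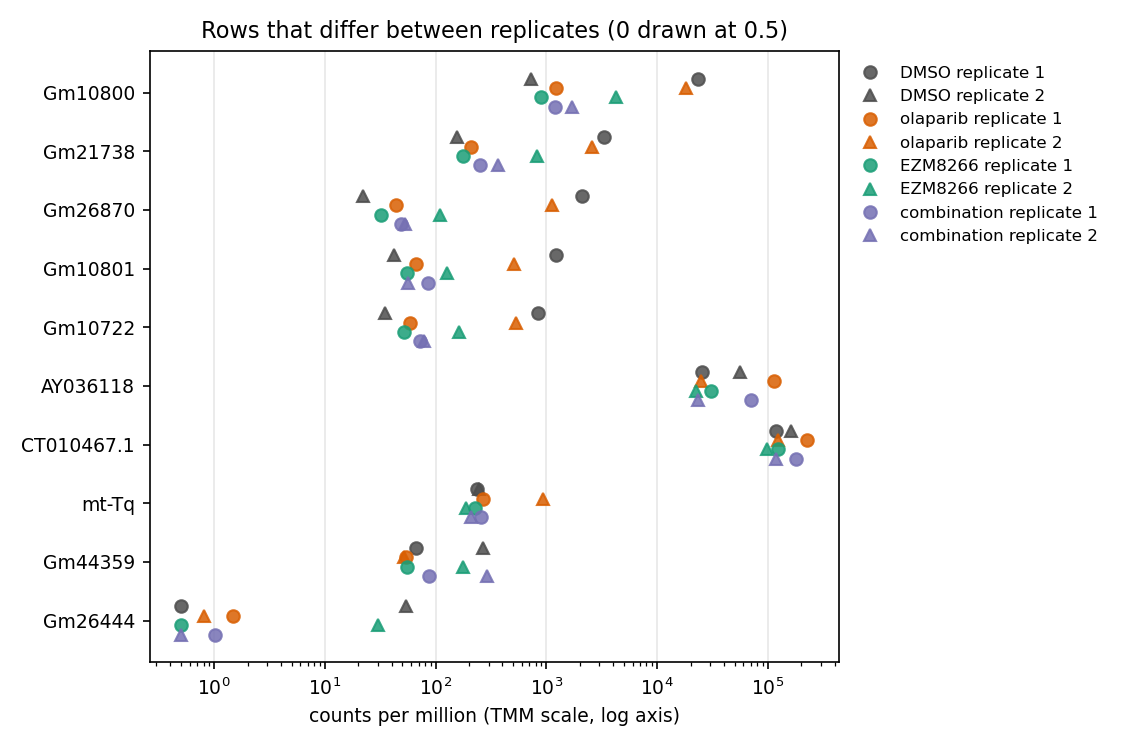
CPM on the TMM scale (log axis, with values of 0 drawn at 0.5) of 10 rows that differ between replicates, in all 8 libraries, with colors for the group and circles and triangles for replicates 1 and 2. The 5 satellite-type rows at the top are highest in DMSO replicate 1 and olaparib replicate 2, and AY036118 and CT010467.1 are highest in olaparib replicate 1.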

How the data were processed

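RNA sequencing of 8 libraries, 4 groups of 2, was analysed, with groups and replicate numbers from the sample titles. The deposited values are whole-number counts per gene, not normalized. Pairs were assigned by featureCounts to exons of GENCODE M18 on mm10, with strand setting 1 and with fragments over several genes given to each of them, per the file headers. The tools named are HISAT2 2.1.0, Subread 1.6.2, MultiQC 1.7 and FastQC 0.11.8, per the submitters' processing notes. Per the labels' protocols, ribosomal RNA was depleted and libraries were made with a KAPA HyperPrep kit.

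All 8 libraries entered 1 fit in edgeR 4.0.16 (R 4.3.3) with 4 group means, TMM scaling and filterByExpr (minimum count 10, minimum total 15), tested by quasi-likelihood with Benjamini-Hochberg adjustment over 6379 rows and a threshold of 0.05. The comparisons were olaparib against DMSO, the combination against EZM8266, and the interaction. Rows were placed in 4 classes by the other strand: exon overlap of at least 50 bases, gene body, within 5000 bases downstream, or none. The members, the 28 gene lists and the rule for named rows were chosen with earlier results of these data known. That rule takes Parp1 and Parp2, up to 12 rows of each direction by unadjusted p with no overlap between groups, a mean of at least 5 CPM and a gene symbol that is no model number, up to 10 rows called in an alternative, up to 4 members of a list, up to 4 rows of each direction by the interaction, and up to 5 rows rich in 2 libraries. List members with an unadjusted p of 0.2 or more are given only for the interferon list. On simulated counts with 200 changed rows, the fit recovered 0.0% at 1.5-fold, 26.5% at 2-fold and 73.0% at 4-fold, with 0, 6 and 8 false calls. For changed rows averaging at least 100 counts it recovered 0.0, 76.2 and 100%. The simulated libraries lacked the likeness of libraries across groups described above, so these shares need not hold for the real ones. DESeq2 1.42.0, other scalings and filters, fits without each library and fits with a block were alternatives. Replicates differed by more than counting noise (chi-square per degree of freedom 9.43 for DMSO and 15.8 for olaparib). The level of 3 counts covers counting error only, and the intervals of fold changes cover the spread between libraries.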

Additional observations from a re-analysis of the deposited data

How the results depend on the processing

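The absence of calls for olaparib against DMSO held with DESeq2, RLE or upper-quartile scaling, a filter on a mean of at least 100 counts, a fit of the 4 libraries alone and the replicate block (0 rows each). With no filter on low counts 8 rows were called and with at least 1 CPM in at least 2 libraries 9, where the median prior degrees of freedom went from 8.91 to infinite. Leaving out 1 library gave 0 to 1 rows, and the added settings gave 1 with crossed DMSO numbers in the replicate block and 1 without DMSO replicate 1 and olaparib replicate 2. No label says that replicate numbers pair the libraries, and the same-number correlation was -0.31 for DMSO and olaparib, 0.29 for EZM8266 and the combination and -0.32 to 0.29 over all 6 pairs of groups; the replicate block called 0 rows in each comparison. For the combination against EZM8266 the counts were 1 with DESeq2, 12 and 12 with the looser filters, 0 to 3 with 1 library left out, 3 with the crossed block and 1 with the Gm10800 covariate. For the interaction they were 1, 7 and 8, 0 to 1, 3 and 1. The share of rows with an interval within 2-fold was 43.9% with no scaling and 29.0 to 44.9% with 1 library left out. Above a mean of 100 counts r was 0.968, 0.987, 0.988 and 0.970 for DMSO 1 with olaparib 1, DMSO 1 with olaparib 2, DMSO 2 with olaparib 1 and the olaparib pair. Without DMSO replicate 1 and olaparib replicate 2 the log2 fold change of Gm10801 was 0.68, of Gm26870 0.98 and of Sp140 (Gm17017) -0.17. That of Irf1 (Gm17334) was -0.000326 with the 1 CPM filter, -0.046 above a mean of 100 counts and -0.000422 with the replicate block. With 1 library left out, log2 fold changes ran from -0.64 to 0.15 for Parp1, -0.72 to 1.52 for AY036118, -0.19 to 0.71 for CT010467.1, -5.42 to 3.53 for Gm26444, -3.20 to 2.76 for Gm10801, -4.57 to 4.72 for Gm26870, -0.16 to 0.71 for Sp140 (Gm17017), -0.065 to 0.072 for Irf1 and -0.042 to 0.42 for Ifi35 (Gm11626). The cause was not tested for any of these.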

Other observations

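Lists of other processes, read through the other strand, held few rows and 0 of them passed the test. Genes of the ATF4 and unfolded protein response gave 4 of 6 rows above 0 for olaparib against DMSO, with a median log2 fold change of 0.16, and 0 of 6 rows above 0 for the combination against EZM8266, with a median of -0.14. Glycolysis and hypoxia genes, which include Ndrg1, gave 6 of 8 rows above 0 with a median of 0.12. Genes of cholesterol synthesis gave 4 of 7 with a median of 0.11, and genes of histone lysine 9 methylation, the process that EHMT1 and EHMT2 belong to, 7 of 11 with a median of 0.08. The 26 rows of the mitochondrial genome, read on their own, gave 18 above 0 with a median of 0.03. Without DMSO replicate 1 and olaparib replicate 2 the counts above 0 for olaparib against DMSO were 4 of 6, 6 of 8, 4 of 7, 8 of 11 and 21 of 26 in the same order. The difference between these lists was not tested.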
